A study of Mus musculus with 6 samples.

Results

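The genes described here are markers and functional genes of macrophages and monocytes together with components, regulators and receptors of the complement system, measured in mouse kidney RNA. They were taken by name from a list of 51 symbols, and 50 of the 13696 genes in the deposited tables matched, 32 of them myeloid and 18 of them complement genes. Cd163 was not analysed here. The kidneys came from 24-month-old mice, with 3 libraries of the fat-1 knockin genotype (fat-1 below) and 3 of wild-type (WT). Whether each library came from a separate animal is not in the labels. The fat-1 gene comes from a nematode, and its enzyme makes omega-3 from omega-6 polyunsaturated fatty acids, which mammals cannot do. The study asks what this gene changes in the aged kidney. The labels give no sex, strain, insertion site or driving promoter, and expression of fat-1 was not analysed here, which leaves the genotypes unchecked. Every level is FPKM, the number of sequenced fragments corrected for transcript length and library size, summed over the transcripts of a gene. Values of a group follow the order of its replicates, 1 to 3.

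Macrophages of the kidney are partly settled before birth and partly replaced by blood monocytes. They depend on the growth factor CSF1, take up dying cells and immune complexes, and present antigen. Complement is a cascade of plasma proteins that marks surfaces for uptake or lysis. The classical pathway opens when C1q binds antibody or damaged cells, the alternative pathway amplifies through factor B, and both converge on cleavage of C3. Most circulating complement is made in the liver, but C1q comes largely from macrophages, and renal tubule cells can make C3 and factor B.

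Promoter sequence was looked up for the members because the list holds Spi1, whose ETS-family product binds purine-rich sites around GAGGAA in many myeloid promoters. RefSeq's promoter table, on build GRCm38.p6, held 38 of the 51 named genes. The 250 bases before each start were searched for GAGGAA on both strands, with no other motif searched. It was found in 14 of 38 members (36.84%), against 6986 of 27025 symbols in the table (25.85%). Among myeloid members 12 of 26 held it (46.15%), and among complement members 2 of 12 (16.67%), which were C1qb and C1qc. Of the 4 windows shown, 3 belong to a complement chain, an Fc receptor and an integrin that carry the motif. The window of C3, the central complement component, does not carry it. Each is written 5′ to 3′ on the strand of its gene, ending at the base before the RefSeq start. Capitals mark the motif, which reads TTCCTC where it lies on the opposite strand.
C1qb (chr4:136886201-136886450, minus strand): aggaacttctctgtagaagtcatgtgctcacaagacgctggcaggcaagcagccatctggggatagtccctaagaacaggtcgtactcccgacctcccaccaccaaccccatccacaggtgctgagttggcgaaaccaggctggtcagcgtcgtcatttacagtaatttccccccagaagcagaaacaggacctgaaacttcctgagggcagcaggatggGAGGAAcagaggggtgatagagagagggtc
Fcgr1 (chr3:96293970-96294219, minus strand): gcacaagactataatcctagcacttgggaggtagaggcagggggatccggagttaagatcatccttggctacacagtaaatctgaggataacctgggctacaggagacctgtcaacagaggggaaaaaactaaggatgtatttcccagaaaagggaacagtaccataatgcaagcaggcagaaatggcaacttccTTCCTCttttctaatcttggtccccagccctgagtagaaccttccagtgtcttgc
Itgam (chr7:128062390-128062639, plus strand): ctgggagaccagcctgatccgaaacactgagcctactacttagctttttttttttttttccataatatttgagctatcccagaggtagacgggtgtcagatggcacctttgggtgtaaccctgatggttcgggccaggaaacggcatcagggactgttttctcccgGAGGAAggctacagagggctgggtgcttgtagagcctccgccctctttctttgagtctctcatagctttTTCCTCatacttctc
C3 (chr17:57228137-57228386, minus strand): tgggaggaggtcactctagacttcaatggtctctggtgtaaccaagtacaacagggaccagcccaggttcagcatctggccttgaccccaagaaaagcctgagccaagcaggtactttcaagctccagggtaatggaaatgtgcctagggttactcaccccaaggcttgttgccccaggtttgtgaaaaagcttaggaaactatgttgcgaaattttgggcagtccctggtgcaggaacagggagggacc
The first base of the match lay 30 bases before the start in C1qb and 55 bases before it in Fcgr1, there on the opposite strand. In Itgam 2 matches lay 84 bases before the start and, on the opposite strand, 15 bases before it. These are letter matches only, and binding was not measured.

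WT replicate 1 stood apart from the other 5 libraries in these genes. It held the highest value of all 6 libraries in 44 of the 50 listed members, 30 of 32 myeloid and 14 of 18 complement genes. Among the 45 members that passed the expression filter it was highest in 40, where it was highest in 25.2% of all 11698 tested genes. Its value was at least 2 times the highest of the other 5 libraries in 27 of the 45, where 2.51% of all tested genes met that measure. The ratio of WT replicate 1 to the median of the other 5 libraries had a median of 4.23 over the tested members, 4.27 for myeloid and 3.18 for complement genes, against 1.06 over all tested genes. It ranged from 0.585 for Cd55, a complement inhibitor, to 14.9 for Lyz2, the lysozyme gene of macrophages. The members' summed level was 715, 555 and 817 FPKM in fat-1 replicates 1 to 3, against 2098, 529 and 607 FPKM in WT replicates 1 to 3. Some member transcripts were listed only because they reached 0.500016 FPKM in WT replicate 1, and these raise mainly its sums. Cx3cr1-202 was at 2.33 FPKM there and at 0 in the other 5 libraries. Without it WT replicate 1 would lie below fat-1 replicates 2 and 3 for Cx3cr1. The counts above were not recomputed without such transcripts. In bulk kidney, fewer cells of a type and less RNA per cell cannot be told apart. Over all genes the correlation of log2 values between 2 libraries ranged from 0.942, between WT replicates 1 and 3, to 0.976. Because of this library, differences are given both with all 6 libraries and without it.

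**Figure D1:**
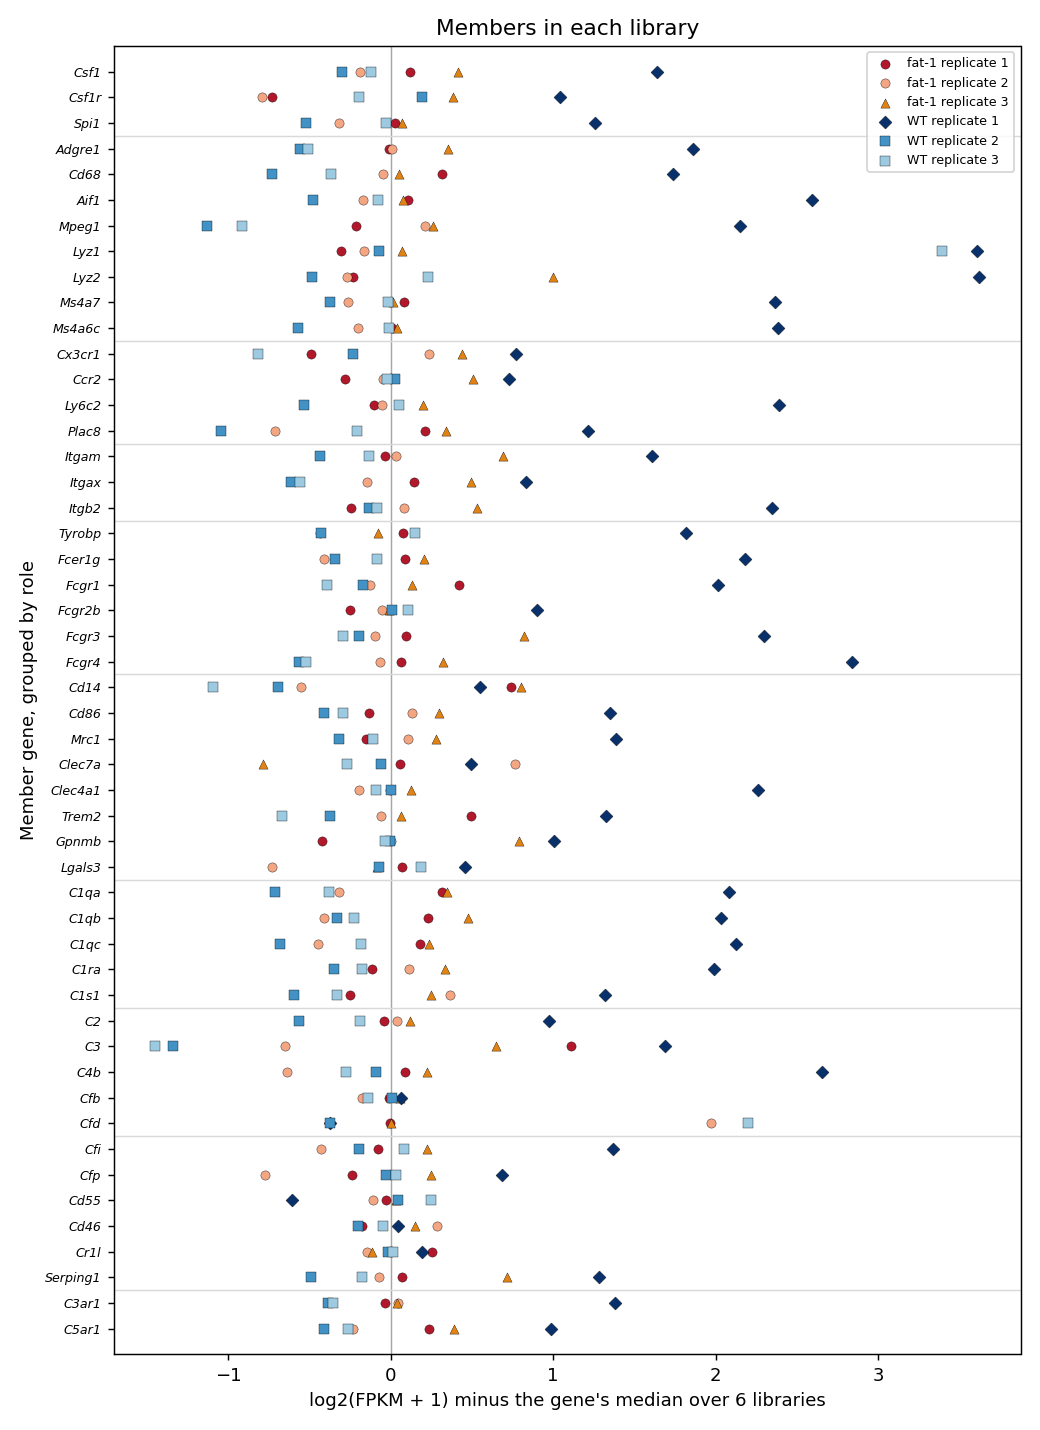
Each point is 1 library's log2(FPKM + 1) for a member gene minus that gene's median over the 6 libraries, with the 50 listed members running down the page by role and grey lines between roles. WT replicate 1 (dark diamonds) lies to the right of the other libraries in 44 of the 50 genes.

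Other leukocyte markers were high in the same WT library, which was highest in 25.2% of all tested genes. Only transcripts that reached 0.500016 FPKM in at least 1 library are listed. Cd28, Gzma, Gzmb, Prf1, Ccr7, Ltf and Cxcr2 stayed below that level in every library but WT replicate 1. They were listed only through WT replicate 1, so their peaks there were fixed by the listing. All 10 listed T cell markers, Cd3e and Cd8a among them, had their highest value there, and the list summed to 5.02, 5.89 and 13.2 FPKM in fat-1 libraries, against 38.5, 4.32 and 6.61 FPKM in WT libraries. Cd8b1 and Cd8a were listed at 0 in WT replicate 2. All 5 listed markers of natural killer cells also peaked there, with sums of 1.46, 2.83 and 2.69 FPKM in fat-1 libraries, against 45.4, 1.08 and 2.97 FPKM in WT libraries. In that list Gzma was at 0 in fat-1 replicates 1 and 2 and WT replicate 2, Gzmb in fat-1 replicates 2 and 3 and WT replicate 3, and Prf1 in fat-1 replicate 3. B and plasma cell markers peaked there in 3 of 7 listed genes, and summed to 117 to 176 FPKM in fat-1 libraries, against 88.3 to 406 FPKM in WT libraries. Ms4a1 was at 0 in fat-1 replicate 2 and WT replicate 2. Dendritic cell markers peaked there in 5 of 7 listed genes, with sums of 6.06 to 8.42 FPKM in fat-1 libraries, against 4.58 to 13.7 FPKM in WT libraries, and none was at 0. Neutrophil markers, of which 5 were listed, peaked there in 4 genes and summed to 1.02 to 24.7 FPKM in fat-1 libraries, against 13.0 to 50.2 FPKM in WT libraries. S100a8 was at 0 in fat-1 replicate 2, and Retnlg in fat-1 replicate 3 and WT replicate 2. The part these cells played in the members' values was not tested.

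No member differed between fat-1 and WT kidneys by the test across all genes. With limma on log2(FPKM + 1) and Benjamini-Hochberg adjustment, 0 of the 45 tested members had an adjusted p under 0.05, where 21 of all 11698 genes did (0.18%). At an unadjusted p under 0.05 the count was also 0 of 45, against 9.97% of all tested genes, 5.8% higher and 4.16% lower in fat-1. The log2 difference was negative, that is lower in fat-1, for 36 of the 45 members, where 48.8% of all genes were. The median difference was -0.29 over the members, -0.34 for the 28 tested myeloid and -0.07 for the 17 tested complement genes, against 0.01 over all tested genes. Values of the 3 fat-1 and the 3 WT libraries did not overlap for 1 of the 45 members, Fcgr2b, where 15.2% of all tested genes showed such a separation.

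The direction depended on WT replicate 1. This library was singled out after its high values in these members were seen. It was highest in 40 of the 45 tested members, and there leaving it out must raise fat-1 minus WT. The upward shift in those members was thus fixed in advance. P-values and intervals without WT replicate 1 rest on the same choice. Without it, 37 of the 45 members had a positive difference, that is higher in fat-1, where 58.0% of all genes did. The median moved to 0.29 over the members, 0.29 for myeloid and 0.38 for complement genes, against 0.05 over all tested genes. In this fit of 3 fat-1 against 2 WT libraries, limma still gave 0 of 45 members an adjusted p under 0.05, where 0.222% of all genes passed. At an unadjusted p under 0.05, 10 members were higher in fat-1, where 8.94% of all genes were, and 0 members were lower, where 4.75% of all genes were. The 10 were Adgre1, Cd68, Mpeg1, Itgax, Fcgr4 and Cd14 among myeloid genes, and C1qa, C1s1, C2 and C3 among complement genes. All 3 fat-1 libraries lay above WT replicates 2 and 3 in 17 of the 45 members, where 20.6% of all genes did. They lay below both in 2 members, Fcgr2b and Cd55, where 11.7% of all genes did. Among the 5 other libraries, fat-1 replicate 3 was the highest in 31 of the 45 members, where it was in 36.3% of all genes. With fat-1 replicate 3 left out as well as WT replicate 1, the median was 0.19 for myeloid and 0.26 for complement members.

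**Figure D2:**
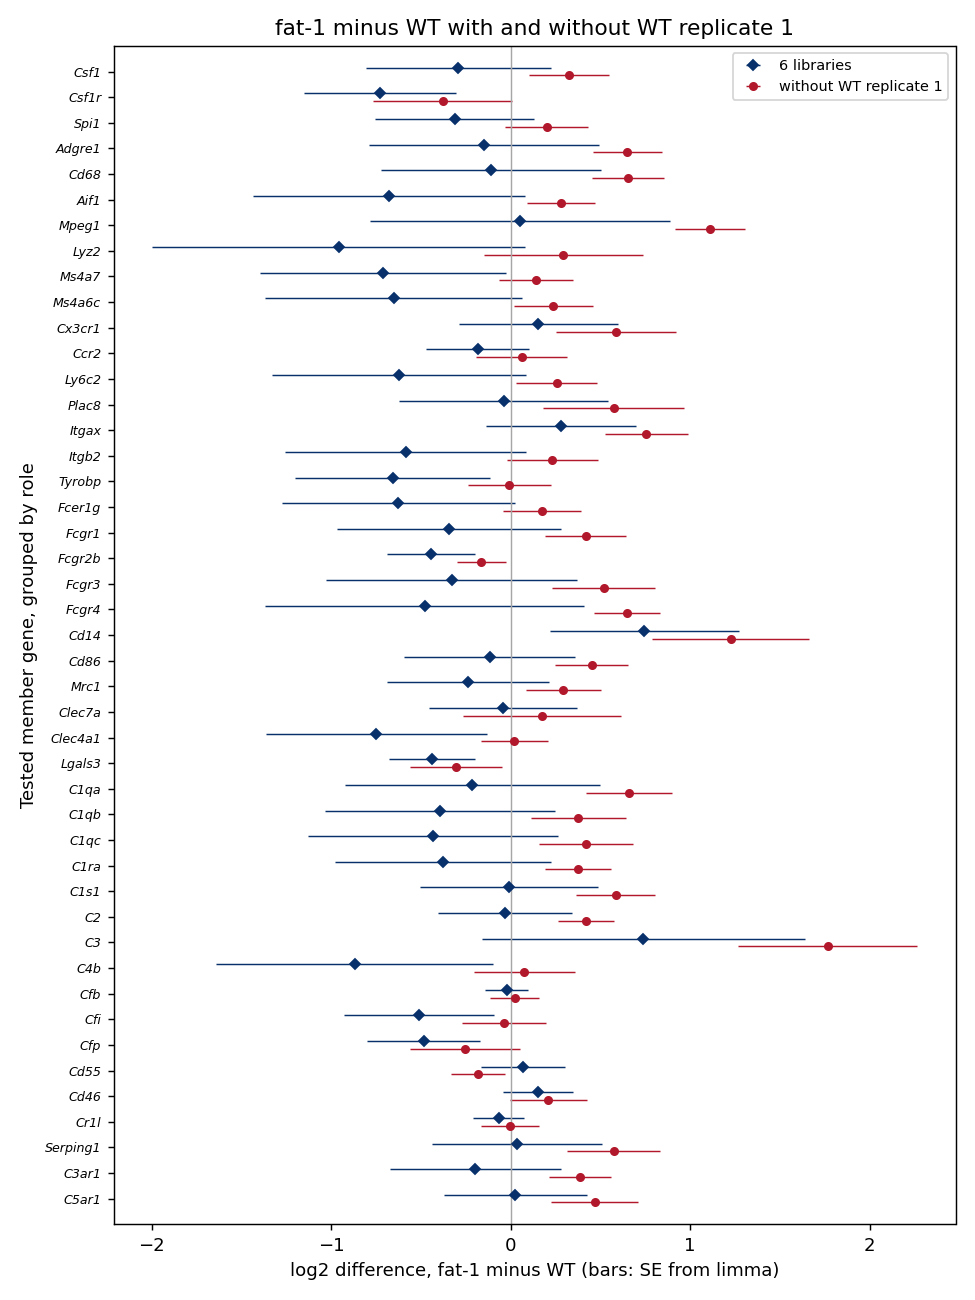
Each row is 1 of the 45 tested members, with the log2 difference fat-1 minus WT on the x axis and bars of 1 standard error from limma, using all 6 libraries (dark diamonds) or without WT replicate 1 (red circles). Most diamonds lie left of 0 (36 of 45) and most circles right of it (37 of 45), and the bars are shorter without that library in 40 of the 45. WT replicate 1 was the highest library in 40 of the 45, so there leaving it out must move the circle to the right of its diamond.

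Among the growth factor genes, the receptor varied most outside WT replicate 1. Csf1 encodes the growth factor that keeps macrophages alive, and it was at 3.43, 2.58 and 4.44 FPKM in fat-1 libraries, against 11.7, 2.32 and 2.76 FPKM in WT libraries. Apart from WT replicate 1, all values lay between 2.32 and 4.44 FPKM and the groups overlapped. The log2 difference was -0.29 ± 0.51 (SE), and 0.32 ± 0.22 without WT replicate 1. Csf1r, the receptor for that factor, was at 6.12, 5.83 and 14.4 FPKM in fat-1 libraries, against 23.4, 12.5 and 9.32 FPKM in WT libraries. Fat-1 replicates 1 and 2 were below every WT library, and fat-1 replicate 3 was above 2 of the 3. Its log2 difference was -0.73 ± 0.42, and it stayed negative at -0.38 ± 0.39 without WT replicate 1, unlike that of most members. Spi1, the transcription factor that directs myeloid development, was at 3.04, 2.18 and 3.16 FPKM in fat-1 libraries, against 8.50, 1.76 and 2.89 FPKM in WT libraries. WT replicate 2 was the lowest library and the groups overlapped, with a difference of -0.31 ± 0.44, or 0.20 ± 0.23 without WT replicate 1.

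Genes that mark macrophages as a lineage shared the high WT library but differed in how far it stood out. Adgre1 encodes F4/80, the usual surface marker of mouse kidney macrophages, and was at 2.36, 2.41 and 3.33 FPKM in fat-1 libraries, against 11.3, 1.30 and 1.38 FPKM in WT libraries. The 3 fat-1 libraries lay between the highest WT library and the other two. The log2 difference was -0.15 ± 0.64 with 6 libraries. Without WT replicate 1 it was 0.65 ± 0.19, with a 95% interval of 0.19 to 1.11 and a limma adjusted p of 0.226. Cd68, a lysosomal glycoprotein of phagocytes, was at 6.0, 4.43 and 4.81 FPKM in fat-1 libraries, against 17.8, 2.39 and 3.36 FPKM in WT libraries. The order was the same as for Adgre1, with every fat-1 library between WT replicate 1 and the other two. Its difference was -0.11 ± 0.62 with 6 libraries and 0.65 ± 0.20 without WT replicate 1, there with a limma adjusted p of 0.244.

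Mpeg1 encodes perforin-2, a pore-forming protein of phagocytes, and had the smallest adjusted p of the members once WT replicate 1 was left out. It was at 9.27, 12.8 and 13.3 FPKM in fat-1 libraries, against 51.7, 4.44 and 5.30 FPKM in WT libraries. With 6 libraries the means, 11.8 ± 2.18 FPKM in fat-1 and 20.5 ± 27.1 FPKM in WT (SD, n = 3 each), differed by less than the spread between replicates. The log2 difference was 0.05 ± 0.84, and 1.11 ± 0.19 without WT replicate 1, with a 95% interval of 0.64 to 1.58 and a limma adjusted p of 0.0939.

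Lyz2, the lysozyme of macrophages and granulocytes, was the most abundant myeloid member in WT replicate 1. It was at 30.0, 29.2 and 71.7 FPKM in fat-1 libraries, against 447, 25.0 and 41.7 FPKM in WT libraries. Fat-1 replicate 3 was the second highest library, and the other 4 lay close together. The difference was -0.96 ± 1.04 with 6 libraries and 0.29 ± 0.44 without WT replicate 1. The neighbouring Lyz1, which failed the expression filter, was at 0.112, 0.227 and 0.443 FPKM in fat-1 libraries, against 15.8, 0.306 and 13.5 FPKM in WT libraries. Here WT replicate 3 was high as well, a library that was not high for Lyz2. Both lie on chromosome 10 (Lyz2 at 117277331-117282321, Lyz1 at 117287797-117292868, mm10) and are close copies, so their reads may have been split differently between libraries and both values are uncertain.

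Ms4a7, a membrane protein of tissue macrophages, was at 2.38, 1.65 and 2.22 FPKM in fat-1 libraries, against 15.4, 1.46 and 2.15 FPKM in WT libraries. Outside WT replicate 1 the groups overlapped closely, and the difference was -0.71 ± 0.69, or 0.14 ± 0.21 without that library. Aif1, the actin-binding protein also called Iba1, and Ms4a6c, another member of the Ms4a family, had the same form. Aif1 was at 4.91 to 6.15 FPKM in fat-1 libraries, against 3.78 to 39.1 FPKM in WT libraries, and Ms4a6c was at 2.90 to 3.60 FPKM in fat-1 libraries, against 2.01 to 22.3 FPKM in WT libraries. The difference was -0.68 ± 0.76 for Aif1 and -0.65 ± 0.72 for Ms4a6c with 6 libraries, and 0.28 ± 0.19 and 0.24 ± 0.22 without WT replicate 1.

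The genes of monocyte recruitment set apart a pair in which the WT library was less distinct. Ccr2, the receptor for CCL2 on inflammatory monocytes, was at 3.29, 4.04 and 6.40 FPKM in fat-1 libraries, against 7.64, 4.29 and 4.12 FPKM in WT libraries. WT replicate 1 was highest by a small margin over fat-1 replicate 3, at 1.85 times the median of the other 5 libraries. The difference was -0.18 ± 0.29, and 0.06 ± 0.25 without WT replicate 1. Cx3cr1, the fractalkine receptor of patrolling monocytes and resident macrophages, was at 1.37, 2.91 and 3.50 FPKM in fat-1 libraries, against 4.68, 1.83 and 0.885 FPKM in WT libraries. Its values spread widely in both groups, and the difference was 0.15 ± 0.44, or 0.59 ± 0.33 without WT replicate 1. Ly6c2, a surface marker of inflammatory monocytes, was at 4.38, 4.58 and 5.63 FPKM in fat-1 libraries, against 29.3, 2.99 and 4.99 FPKM in WT libraries. Apart from WT replicate 1, at 6.40 times the median of the others, the groups overlapped, with a difference of -0.62 ± 0.71, or 0.26 ± 0.22 without that library. Ly6c2 has close copies in the Ly6 family, so its level is uncertain. Plac8, a small cysteine-rich protein of monocytes and other leukocytes, ranged from 16.2 to 34.6 FPKM in fat-1 libraries, against 12.6 to 64.2 FPKM in WT libraries, a difference of -0.04 ± 0.58, or 0.57 ± 0.39 without WT replicate 1.

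Integrins followed the lineage genes. Itgb2, the beta chain that pairs with both alpha chains in the list, was at 2.09, 2.86 and 4.27 FPKM in fat-1 libraries, against 17.6, 2.33 and 2.45 FPKM in WT libraries. The groups overlapped below WT replicate 1, and the difference was -0.59 ± 0.67, or 0.23 ± 0.25 without it. Itgax encodes CD11c, common to dendritic cells and many kidney macrophages, and was at 2.44, 1.82 and 3.40 FPKM in fat-1 libraries, against 4.56, 1.03 and 1.11 FPKM in WT libraries. All fat-1 libraries lay above WT replicates 2 and 3. Its difference was 0.28 ± 0.42, and 0.75 ± 0.23 without WT replicate 1, with a limma adjusted p of 0.245. Itgam, the CD11b chain whose promoter window is printed above, was too low to be tested. It was at 0.853, 0.947 and 2.07 FPKM in fat-1 libraries, against 4.80, 0.405 and 0.729 FPKM in WT libraries.

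Fc receptors bind antibody-coated targets, and most signal through the adaptor chain encoded by Fcer1g. Fcer1g was at 17.9, 12.4 and 19.5 FPKM in fat-1 libraries, against 80.1, 13.1 and 15.8 FPKM in WT libraries. Tyrobp, a second adaptor that serves Trem2 and other receptors, was at 22.7, 15.6 and 20.3 FPKM in fat-1 libraries, against 78.0, 15.7 and 24.0 FPKM in WT libraries. With 6 libraries the differences were -0.63 ± 0.65 for Fcer1g and -0.66 ± 0.54 for Tyrobp. They were 0.17 ± 0.22 for Fcer1g and -0.01 ± 0.23 for Tyrobp without WT replicate 1. The 95% interval for Tyrobp without that library was -0.57 to 0.56. The files list 2 Tyrobp transcripts. Tyrobp-202 was at 0.414, 0.348 and 0.137 FPKM in fat-1 libraries, against 35.6, 1.14 and 3.49 FPKM in WT libraries, so that this minor transcript carried much of the excess of WT replicate 1.

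Of the Fc receptors, 3 are activating and Fcgr2b is inhibitory. Fcgr4, an activating receptor for IgG, was at 4.13, 3.70 and 5.14 FPKM in fat-1 libraries, against 34.2, 2.33 and 2.43 FPKM in WT libraries. WT replicate 1 was 9.23 times the median of the others, and every fat-1 library lay above the other two WT libraries. The difference was -0.48 ± 0.89 with 6 libraries and 0.65 ± 0.18 without WT replicate 1, there with a limma adjusted p of 0.206. Fcgr1, the high-affinity receptor, ranged from 1.14 to 2.13 FPKM in fat-1 libraries, against 0.786 to 8.44 FPKM in WT libraries. Fcgr3, another activating receptor, ranged from 4.99 to 10.3 FPKM in fat-1 libraries, against 4.23 to 30.5 FPKM in WT libraries. With 6 libraries the differences were -0.35 ± 0.62 for Fcgr1 and -0.33 ± 0.70 for Fcgr3, and without WT replicate 1 they were 0.42 ± 0.23 and 0.52 ± 0.29. Fcgr2b, the inhibitory receptor that is also found on B cells and endothelium, was at 12.5, 14.5 and 15.0 FPKM in fat-1 libraries, against 29.1, 15.2 and 16.3 FPKM in WT libraries. Every fat-1 library was below every WT library, with fat-1 replicate 3 and WT replicate 2 nearly touching. The difference was -0.44 ± 0.24 with a limma adjusted p of 0.657, and -0.16 ± 0.14 without WT replicate 1. Fcgr2b, Fcgr4, Fcgr3 and Fcer1g lie on chromosome 1 between 170958617 and 171234365 (mm10), and the receptors share sequence, so reads could be divided between them.

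Among pattern recognition and scavenger receptors, Cd14 had an order of its own. Cd14 is the co-receptor for bacterial lipopolysaccharide, and tubule cells can also express it. It was at 13.1, 4.76 and 13.7 FPKM in fat-1 libraries, against 11.4, 4.21 and 2.96 FPKM in WT libraries. Fat-1 replicates 1 and 3 and WT replicate 1 were high, and the other 3 libraries were low. The difference was 0.74 ± 0.53, and 1.22 ± 0.44 without WT replicate 1, with a 95% interval of 0.15 to 2.30 and a limma adjusted p of 0.304. Mrc1, the mannose receptor of resident macrophages, was at 1.17, 1.60 and 1.93 FPKM in fat-1 libraries, against 5.31, 0.936 and 1.23 FPKM in WT libraries. The groups overlapped, and the difference was -0.24 ± 0.45, or 0.29 ± 0.21 without WT replicate 1.

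Trem2, a lipid-sensing receptor of macrophages, failed the filter at 1.24, 0.524 and 0.660 FPKM in fat-1 libraries, against 2.98, 0.229 and 0 FPKM in WT libraries. WT replicate 1 was highest and WT replicate 3 was listed at 0. Gpnmb, a glycoprotein of lipid-laden macrophages, also failed it, at 0.126 to 1.60 FPKM in fat-1 libraries, against 0.471 to 2.03 FPKM in WT libraries. Cd86, a co-stimulatory ligand, ranged from 1.26 to 2.04 FPKM in fat-1 libraries, against 0.863 to 5.33 FPKM in WT libraries. Clec4a1, a C-type lectin with close relatives in the same gene cluster, ranged from 1.07 to 1.59 FPKM in fat-1 libraries, against 1.23 to 10.4 FPKM in WT libraries. With 6 libraries the differences were -0.12 ± 0.47 for Cd86 and -0.75 ± 0.62 for Clec4a1, and without WT replicate 1 they were 0.45 ± 0.20 and 0.02 ± 0.19. Clec7a, the beta-glucan receptor dectin-1, was highest in fat-1 replicate 2 rather than in WT replicate 1. Lgals3, galectin-3, is made by macrophages and by tubule cells, and was at 39.4, 22.2 and 35.2 FPKM in fat-1 libraries, against 51.8, 35.6 and 42.8 FPKM in WT libraries. WT replicate 1 was only 1.46 times the median of the other 5, and 1 fat-1 library exceeded 1 WT library. The difference was -0.44 ± 0.24, and -0.30 ± 0.26 without WT replicate 1.

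C1q opens the classical complement pathway, and its 3 chains come from adjacent genes on chromosome 4 (mm10), C1qb at 136880129-136886187, C1qc at 136889804-136893065 and C1qa at 136895917-136898803. C1qa was at 41.8, 26.6 and 42.7 FPKM in fat-1 libraries, against 145, 20.0 and 25.4 FPKM in WT libraries. Every fat-1 library lay between WT replicate 1 and the other two. The difference was -0.22 ± 0.71 with 6 libraries and 0.66 ± 0.24 without WT replicate 1, with a limma adjusted p of 0.304. C1qb was at 39.2, 24.8 and 46.7 FPKM in fat-1 libraries, against 140, 26.3 and 28.3 FPKM in WT libraries. C1qc was at 24.1, 15.2 and 25.1 FPKM in fat-1 libraries, against 95.6, 12.8 and 18.5 FPKM in WT libraries. For both, fat-1 replicate 2 fell within the range of WT replicates 2 and 3 or below it. The differences were -0.40 ± 0.64 for C1qb and -0.43 ± 0.70 for C1qc with 6 libraries, and 0.38 ± 0.26 and 0.42 ± 0.26 without WT replicate 1. The ratio of C1qa to C1qb FPKM stayed between 0.916 and 1.07 in fat-1 libraries, against 0.763 to 1.04 in WT libraries, and C1qc to C1qb stayed between 0.537 and 0.615 in fat-1 libraries, against 0.488 to 0.684 in WT libraries. The 3 chains thus kept similar proportions in all libraries, including WT replicate 1, where each was about 5 times the median of the others (5.44, 4.94 and 5.16 for C1qa, C1qb and C1qc).

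C1ra and C1s1 encode the proteases that C1q carries. C1ra was at 6.09, 7.29 and 8.66 FPKM in fat-1 libraries, against 29.5, 5.02 and 5.79 FPKM in WT libraries. C1s1 was at 9.35, 14.9 and 13.6 FPKM in fat-1 libraries, against 29.7, 7.13 and 8.79 FPKM in WT libraries. In both, all fat-1 libraries lay above WT replicates 2 and 3 and below WT replicate 1. With 6 libraries the differences were -0.38 ± 0.60 for C1ra and -0.01 ± 0.50 for C1s1. Without that library they were 0.37 ± 0.18 for C1ra and 0.58 ± 0.22 for C1s1, with limma adjusted p of 0.442 and 0.321. Both genes have near copies in the mouse, C1rb and C1s2, so their values are uncertain.

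C3, cleaved by every complement pathway, had its lowest values in WT replicates 2 and 3. It was at 59.9, 17.0 and 43.2 FPKM in fat-1 libraries, against 89.8, 10.1 and 9.33 FPKM in WT libraries. Fat-1 replicates 1 and 3 lay well below WT replicate 1 but above every remaining library, and all fat-1 libraries were above WT replicates 2 and 3. The means were 40.0 ± 21.6 FPKM in fat-1 and 36.4 ± 46.2 FPKM in WT (SD, n = 3 each). The log2 difference was 0.74 ± 0.90 and, without WT replicate 1, 1.77 ± 0.50, with a 95% interval of 0.54 to 2.99 and a limma adjusted p of 0.220. Relative to C1qa, C3 was at 1.43, 0.639 and 1.01 in fat-1 libraries, against 0.620, 0.506 and 0.367 in WT libraries. These fat-1 ratios were all above the WT ratios, narrowly for fat-1 replicate 2. Ratios were not tested, and others overlapped between the groups. One was C2 to Cfb, at 0.0946, 0.113 and 0.102 in fat-1 libraries, against 0.187, 0.0633 and 0.0926 in WT libraries. For single genes, 15.2% of all tested genes showed no overlap between the groups.

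Markers of tubule injury varied beside C3 and Cd14. Lcn2, a tubule injury marker that neutrophils also make, was at 58.7, 4.76 and 68.3 FPKM in fat-1 libraries, against 61.1, 11.2 and 8.88 FPKM in WT libraries. Its 3 high libraries were the 3 that were high for C3 and for Cd14, but other injury markers had other orders. Havcr1 was at 67.7, 3.98 and 13.9 FPKM in fat-1 libraries, against 17.5, 23.5 and 13.7 FPKM in WT libraries. The 8 injury markers were all listed and none was at 0 in any library. Their sum, mostly Spp1, was 2711, 630 and 1534 FPKM in fat-1 libraries, against 1475, 873 and 750 FPKM in WT libraries. With 6 libraries 0 of 8 had an unadjusted limma p under 0.05, against 9.97% of all tested genes. Without WT replicate 1, 2 of 8 were higher in fat-1 at that level and 0 lower, against 8.94% and 4.75% of all tested genes. Of the 8 differences 6 were then positive, against 58.0% over all tested genes. The part of these markers in the values of C3 and Cd14 was not tested.

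**Figure D3:**
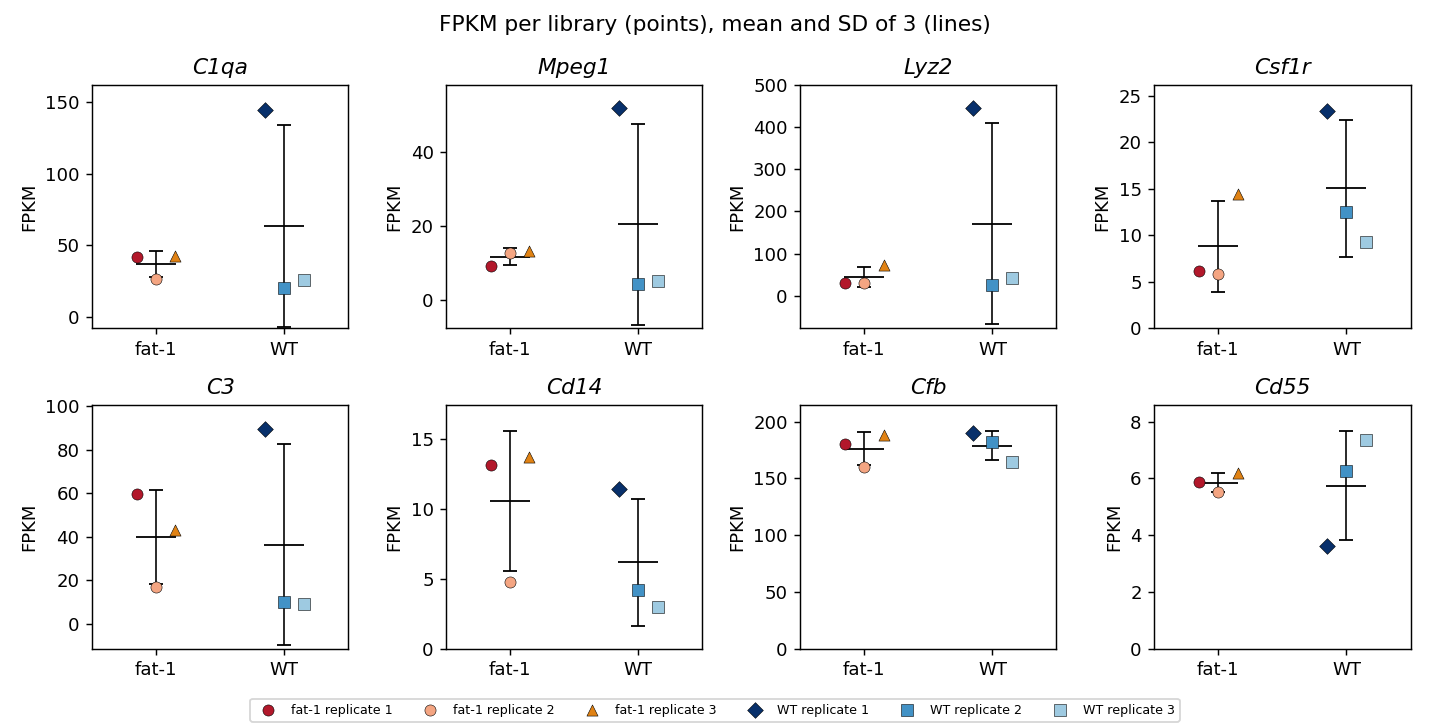
FPKM of 8 members in each library, with fat-1 on the left and WT on the right of each panel, points for libraries and lines for the mean and SD of 3. WT replicate 1 is far above the other libraries in C1qa, Mpeg1 and Lyz2, shares high values with fat-1 replicates 1 and 3 in C3 and Cd14, and does not stand out in Cfb, while in Cd55 it is the lowest, at 3.61 FPKM.

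C2 and Cfb encode the serine proteases of the classical and the alternative C3 convertase and lie next to each other on chromosome 17 (mm10, Cfb at 34856374-34862518 and C2 at 34862604-34882100). C2 was at 17.1, 18.1 and 19.2 FPKM in fat-1 libraries, against 35.4, 11.5 and 15.3 FPKM in WT libraries. All fat-1 libraries lay between WT replicate 1 and the other two, and the difference was -0.03 ± 0.37, or 0.42 ± 0.16 without it, there with a limma adjusted p of 0.318. Cfb was the most abundant member in 5 of the 6 libraries, at 180, 160 and 188 FPKM in fat-1 libraries, against 190, 182 and 165 FPKM in WT libraries. WT replicate 1 did not stand out, at 1.05 times the median of the other 5. Its difference of -0.02 ± 0.12 had the smallest standard error among the members, and the 95% interval without WT replicate 1 was -0.31 to 0.35.

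The total of Cfb hid large shifts between its 7 listed transcripts. Cfb-201 was at 78.0, 83.8 and 92.3 FPKM in fat-1 libraries, against 19.3, 91.6 and 27.9 FPKM in WT libraries. Cfb-206 was at 35.6, 14.3 and 14.8 FPKM in fat-1 libraries, against 87.5, 27.3 and 0.896 FPKM in WT libraries. Cfb-207 was at 5.79, 46.6 and 19.3 FPKM in fat-1 libraries, against 6.82, 47.6 and 96.8 FPKM in WT libraries. The dominant transcript was Cfb-201 in all fat-1 libraries and WT replicate 2, Cfb-206 in WT replicate 1 and Cfb-207 in WT replicate 3. Transcript values were not tested, and they depend on how the authors' tool divided shared reads.

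**Figure D4:**
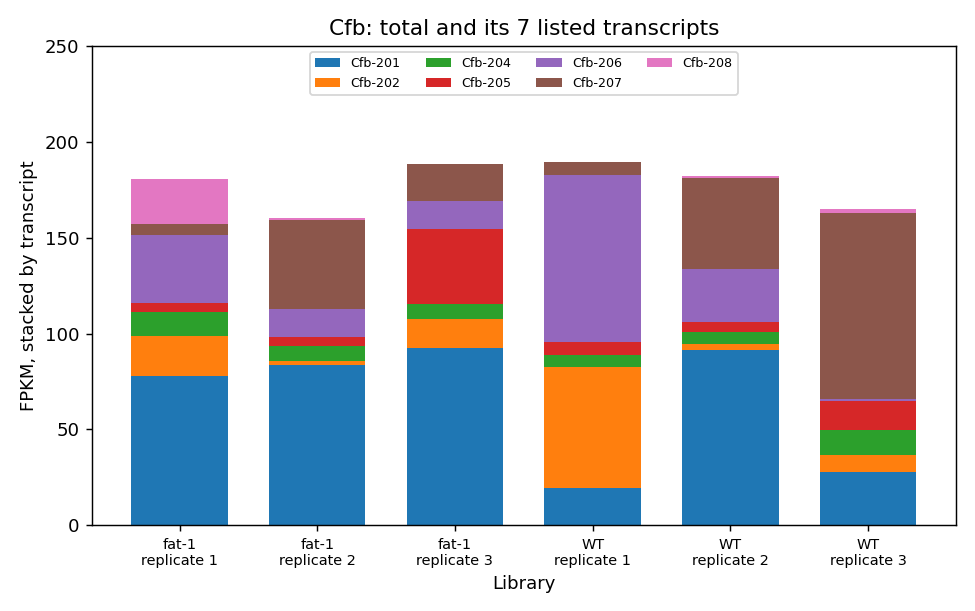
Stacked bars give the FPKM of the 7 listed Cfb transcripts in each library, fat-1 on the left and WT on the right. The totals lie between 160 and 190 FPKM while the makeup differs, with Cfb-206 largest in WT replicate 1 and Cfb-207 largest in WT replicate 3.

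C4b, whose product is cleaved by C1s in the classical pathway, was at 5.95, 3.20 and 6.63 FPKM in fat-1 libraries, against 40.0, 5.13 and 4.39 FPKM in WT libraries. WT replicate 1 was 7.80 times the median of the others, which was more than for any other complement member, and the remaining values overlapped. The difference was -0.87 ± 0.77, and 0.08 ± 0.28 without WT replicate 1. C4b has a near copy, C4a, so its value is uncertain. Cfd, factor D, the protease that cleaves factor B, failed the filter. It was at 0.293, 4.07 and 0.295 FPKM in fat-1 libraries, against 0, 0 and 4.93 FPKM in WT libraries, and so was high in 1 library of each group.

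The regulators of complement were the role least marked by WT replicate 1, which was highest in 3 of 6. Serping1, the inhibitor of the C1 proteases, was at 38.3, 34.6 and 60.3 FPKM in fat-1 libraries, against 89.9, 25.6 and 32.0 FPKM in WT libraries. All fat-1 libraries lay above WT replicates 2 and 3, and the difference was 0.03 ± 0.47, or 0.57 ± 0.26 without WT replicate 1. Cfi, factor I, which inactivates C3b, was at 4.60, 3.39 and 5.92 FPKM in fat-1 libraries, against 14.2, 4.16 and 5.25 FPKM in WT libraries. Outside WT replicate 1 the groups overlapped, and the difference was -0.51 ± 0.42, or -0.04 ± 0.23 without it. Cfp, properdin, the stabiliser of the alternative convertase, was at 2.93, 1.71 and 4.50 FPKM in fat-1 libraries, against 6.44, 3.53 and 3.73 FPKM in WT libraries. Its difference was -0.48 ± 0.31, and -0.26 ± 0.31 without WT replicate 1.

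Cd55, which speeds the decay of convertases on cell surfaces, was the tested member in which WT replicate 1 was lowest relative to the others. It was at 5.87, 5.51 and 6.17 FPKM in fat-1 libraries, against 3.61, 6.24 and 7.35 FPKM in WT libraries. The fat-1 libraries lay inside the WT range, and the difference was 0.07 ± 0.23 with 6 libraries and -0.18 ± 0.15 without WT replicate 1. Cr1l, the rodent membrane regulator also called Crry, was at 33.0, 24.8 and 25.3 FPKM in fat-1 libraries, against 31.6, 27.2 and 27.8 FPKM in WT libraries. The groups overlapped and the difference was -0.07 ± 0.14, with a 95% interval of -0.39 to 0.39 without WT replicate 1. Cd46, a related membrane cofactor, was low in every library, at 0.736 to 1.39 FPKM in fat-1 libraries, against 0.705 to 1.02 FPKM in WT libraries.

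The receptors for complement fragments were low. C3ar1, the receptor for C3a, was at 1.10, 1.23 and 1.21 FPKM in fat-1 libraries, against 4.60, 0.652 and 0.684 FPKM in WT libraries. C5ar1, the receptor for C5a, was at 1.26, 0.634 and 1.52 FPKM in fat-1 libraries, against 2.81, 0.445 and 0.600 FPKM in WT libraries. In both, all fat-1 libraries lay above WT replicates 2 and 3 and below WT replicate 1. With 6 libraries the differences were -0.20 ± 0.48 for C3ar1 and 0.03 ± 0.40 for C5ar1. Without that library they were 0.39 ± 0.17 and 0.47 ± 0.24, with limma adjusted p of 0.398 and 0.468.

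Further genes of the same pathways were read from lists that hold no member. Of 16 other complement genes listed, 13 were tested and 0 had a limma adjusted p under 0.05. At an unadjusted p under 0.05, 1 was higher and 0 were lower in fat-1, against 5.8% higher and 4.16% lower over all tested genes. Without WT replicate 1, 3 were higher and 0 were lower at that level, against 8.94% and 4.75% over all tested genes. WT replicate 1 was highest in 5 of these 16 genes, 1 of which, Masp1, was listed only through that library.

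Of 30 other phagocyte gene entries listed, 27 peaked in WT replicate 1. Marco, Siglec1 and Msr1 were listed only through that library, so their peaks there were fixed by the listing. Of the 20 tested, 0 had a limma adjusted p under 0.05. At an unadjusted p under 0.05 Folr2, a folate receptor of resident macrophages, was lower in fat-1 and 0 were higher. Over all tested genes 4.16% were lower and 5.8% higher at that level. Without WT replicate 1, 8 of the 20 were higher in fat-1 at that level, where 8.94% of all tested genes were. Folr2 was still the 1 lower, where 4.75% of all tested genes were. Of the 20 differences 17 were positive, against 58.0% over all tested genes. WT replicate 1 was highest in 17 of the 20, so there leaving it out must raise fat-1 minus WT. Folr2 was at 0.837, 0.873 and 1.41 FPKM in fat-1 libraries, against 1.55, 2.30 and 2.30 FPKM in WT libraries, and it was one of the 3 that did not peak in WT replicate 1. Marco, a scavenger receptor, was listed at 0 in all 3 fat-1 libraries, and was at 4.48 FPKM in WT replicate 1 and listed at 0 in the other two WT libraries. Ptprc, the common leukocyte antigen CD45, was at 0.0399, 0.906 and 8.26 FPKM in fat-1 libraries, against 8.27, 0.0206 and 0.0234 FPKM in WT libraries, so fat-1 replicate 3 was as high as WT replicate 1 for this gene. It was near 0 in fat-1 replicate 1 and WT replicates 2 and 3, where most members were not. With 4 listed transcripts, the level of Ptprc is uncertain.

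All 8 listed genes of MHC class II antigen presentation peaked in WT replicate 1. They summed to 633, 601 and 1151 FPKM in fat-1 libraries, against 4358, 429 and 505 FPKM in WT libraries. Of the 7 tested, 0 had an unadjusted limma p under 0.05, against 9.97% of all tested genes. All 7 differences were negative with 6 libraries, with a median of -0.41. All 7 were positive without WT replicate 1, with a median of 0.73, where 58.0% of all tested genes were positive. At an unadjusted limma p under 0.05, 2 were then higher in fat-1, where 8.94% of all tested genes were. WT replicate 1 was highest in all 7, so leaving it out must raise each difference. Of 20 chemokine and cytokine genes listed, 16 peaked in the same library, and 1 of these, Tnf, was listed only through it. A limma adjusted p under 0.05 was met by 0.18% of all tested genes and, of the 15 tested here, by 1. This was Cxcl12, a stromal chemokine, at 21.2, 25.5 and 27.8 FPKM in fat-1 libraries, against 10.9, 9.50 and 9.09 FPKM in WT libraries, with a difference of 1.25 and a limma adjusted p of 0.0473. That call held in 9 of 18 alternative settings, with adjusted p from 0.0402 to 0.197 over them. It held without WT replicate 1 (adjusted p = 0.0489) and was lost without any other single library (limma adjusted p of 0.0920 to 0.197). In the whole chemokine list 10 of 15 differences were negative with 6 libraries, against 48.8% over all tested genes. Without WT replicate 1, 14 of 15 were positive, against 58.0% over all tested genes. That library was highest in 12 of the 15, so there the upward shift was fixed in advance. Cx3cl1, the ligand of Cx3cr1, was at 32.1, 30.5 and 33.9 FPKM in fat-1 libraries, against 25.7, 25.3 and 23.7 FPKM in WT libraries. Its groups did not overlap either, but the limma adjusted p was 0.269. Ccl2, the ligand of Ccr2, was at 3.37, 1.14 and 2.27 FPKM in fat-1 libraries, against 15.1, 2.27 and 2.78 FPKM in WT libraries.

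Markers of endothelium moved differently from the members, and those of other cell types are given beside them. All 10 endothelial markers were higher in fat-1 at an unadjusted p under 0.05, where 5.8% of all tested genes were. Of the 10, 1 gene, Plvap, had a limma adjusted p of 0.0496, and 0.18% of all tested genes had one under 0.05. Without WT replicate 1, 9 of the 10 markers were higher at that unadjusted level, where 8.94% of all tested genes were. Plvap then had a limma adjusted p of 0.0647. Its call held in 3 of 18 alternative settings and was lost without any single library. Their sum was 200, 244 and 263 FPKM in fat-1 libraries, against 121, 103 and 126 FPKM in WT libraries, and WT replicate 1 was highest for none of the 10. Erythrocyte markers, of which 6 were listed, summed to 540, 27.3 and 15.0 FPKM in fat-1 libraries, against 242, 138 and 203 FPKM in WT libraries, with none of the 6 at 0. Fibroblast and pericyte markers summed to 53.0 to 78.9 FPKM in fat-1 libraries, against 49.5 to 107 FPKM in WT libraries, and WT replicate 1 was highest in 5 of 8. At an unadjusted limma p under 0.05, 2 of the 8 were lower and 1 was higher in fat-1 with 6 libraries. Of all tested genes, 4.16% were lower and 5.8% higher at that level. Without WT replicate 1, 2 of the 8 were lower and 2 were higher, against 4.75% lower and 8.94% higher over all tested genes. The part of these cells in the members' values was not tested. Kidney epithelium was clear in every library, with Slc34a1, the phosphate transporter of the proximal tubule, at 854 to 1357 FPKM in fat-1 libraries, against 1135 to 1359 FPKM in WT libraries. Of 10 epithelial markers, 2 were lower and 2 higher in fat-1 at an unadjusted limma p under 0.05 with 6 libraries. Of their differences 8 were negative, against 48.8% over all tested genes.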

How the data were processed

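RNA of mouse kidney was measured in 6 libraries, 3 fat-1 knockin and 3 WT, all at 24 months. The authors' deposited tables give FPKM per transcript, in a table for each sample. Per the submitters' processing notes, the authors worked on build mm10 with HISAT2 2.0.5, with featureCounts 1.5.0-p3 and with DESeq2 1.20.0. Neither the FPKM software nor a strand setting is given in the sources used here. In all, 27486 transcripts are listed, each reaching 0.500016 FPKM or more in at least 1 library, so lower ones were not analysed here.

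FPKM was summed by gene identifier (13696 genes). The filter kept the 11698 genes that reached 1 FPKM in 3 or more libraries, and 45 of the 50 listed members passed. Lyz1, Itgam, Trem2, Gpnmb and Cfd did not pass. Limma 3.58.1 in R 4.3.3 was fitted to log2(FPKM + 1) without covariates, using the trend and robust options of its variance estimate, and p-values were adjusted by Benjamini-Hochberg over the 11698 genes (called under 0.05). Each difference is the fat-1 mean less the WT mean of log2(FPKM + 1), a scale that shrinks changes of low genes. The planned design allowed for counts or FPKM, and the FPKM form was used. The fit was tested on simulated data.

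Whole reads could not be recovered. FPKM times length, for genes with 1 transcript and a GENCODE length, had its best step between 69.2 and 83.4, and 20.0% to 25.0% of low values lay within 0.05 of a whole multiple, against 10.0% if evenly spread. The depth is therefore unknown and no counting intervals are given. Summed FPKM was 387488 to 421497 in fat-1 libraries, against 391237 to 431081 in WT libraries, and mitochondrially encoded genes took 12.6% to 16.7% in fat-1 libraries, against 12.1% to 16.7% in WT libraries. No pair of libraries shared an equal gene value above 0 (0 genes). Whether each kidney is from another animal is not in the labels, so p-values reflect only the spread between these samples, which may be technical.

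The members, and the pathway and marker lists, were chosen with earlier results of these data known. All members could be named by role. Library values in full were planned for 21 of the best known members, and for the 2 tested members of each role with the smallest p. Other lists were limited to 4 genes with the smallest p. Marco, Ptprc, Lcn2, Havcr1, Plvap and Slc34a1 were named after their values were seen. So were further members given with full values, and the genes named as listed only through WT replicate 1. Alternatives covered scaling between libraries, the filter, the pseudocount, the variance options, the highest transcript per gene and each library left out. Tables were joined in Python 3.11.15 with pandas 2.3.3, and figures drawn with matplotlib 3.10.9. Some genes of the other lists are not reported here.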

Additional observations from a re-analysis of the deposited data

How the results depend on the processing

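No member had an adjusted p under 0.05 by limma in any setting tried (0 members in each). The number of members at an unadjusted p under 0.05, 0 with 6 libraries, was 1 with no filter, 1 with a mean of at least 1 FPKM and 1 with the highest transcript of each gene. It was 7 with WT replicate 1 and fat-1 replicate 3 both left out, and ranged from 0 to 10 when each library was left out, reaching 10 without WT replicate 1. Of all tested genes, 9.97% had an unadjusted limma p under 0.05 with 6 libraries. Without WT replicate 1, 8.94% were higher and 4.75% lower in fat-1 at that level. This share was not computed for the other settings, so the count of 7 has no such share beside it. Over all genes, 21 calls became 8 with median-of-ratios scaling, 8 with trimmed means, 34 with quantile normalization, 33 when rescaled without mitochondrially encoded genes, 4 with no filter, 3 with no trend, 3 with the highest transcript and 0 without both libraries, and 0 to 26 with each library left out. The median difference with each library left out was -0.66 to 0.29 for myeloid and -0.37 to 0.38 for complement members. It was above 0 only without WT replicate 1, and, of the other settings, with both of those libraries left out (0.19 and 0.26). Single genes changed sign for the most part when WT replicate 1 was left out. With each library left out in turn, log2 differences were -0.56 to 0.65 for Adgre1, -0.74 to 0.66 for C1qa, -0.81 to 0.38 for C1qb, -0.98 to 0.42 for C1qc, -0.80 to 0.37 for C1ra, -0.50 to 0.39 for C3ar1, -1.39 to 0.0756 for C4b, -0.23 to 0.47 for C5ar1, -0.41 to 0.0609 for Ccr2, -0.18 to 0.25 for Cd55, -0.58 to 0.65 for Cd68, -0.65 to 0.32 for Csf1, -0.21 to 0.59 for Cx3cr1, -1.09 to 0.17 for Fcer1g, -1.01 to 0.23 for Itgb2, -1.21 to 0.26 for Ly6c2, -1.76 to 0.29 for Lyz2, -0.56 to 0.29 for Mrc1, -1.23 to 0.14 for Ms4a7 and -0.69 to 0.20 for Spi1. Without both libraries the changed signs gave 0.53 for Adgre1, 0.55 for C1qa, 0.19 for C1qb, 0.30 for C1qc, 0.26 for C1ra, 0.37 for C3ar1, -0.22 for Cd55, 0.68 for Cd68, 0.17 for Csf1, 0.0523 for Fcer1g, 0.0279 for Itgb2, 0.16 for Ly6c2, 0.19 for Mrc1, 0.11 for Ms4a7, 0.13 for Spi1. C5ar1 was at -0.0407 with quantile normalization. Without WT replicate 1 the WT group holds 2 libraries. No paired analysis was possible because the labels number no replicates across the groups, and the numbers used here follow the order of deposit and pair nothing. The depth is unknown, so what it limits cannot be stated, and a missing call does not show that levels are equal.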
